A study of Homo sapiens with 4 samples.

Results

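The KLF genes described here are 10 genes of the Krüppel-like factor family, taken by gene name from the table of the TT-seq comparison. Of these, 8 are among its 10147 genes: *KLF3*, *KLF4*, *KLF6*, *KLF9*, *KLF10*, *KLF11*, *KLF13* and *KLF16*. *KLF2* and *KLF7* are not analysed here. *KLF1*, the erythroid member of the family, was not part of the selection and is given only for comparison. Krüppel-like factors are transcription factors that bind GC-rich and CACCC-type promoter elements through a C-terminal block of C2H2 zinc fingers, and they differ in the co-regulators that their N-terminal parts recruit. Several of them are known as early response genes whose short transcripts are made soon after a stimulus and are lost quickly.

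The cells were K562, a human leukemia line with erythroid and myeloid features, in which the endogenous *IWS1* gene had been edited to give IWS1 an N-terminal degradation tag (dTAG). All libraries, controls included, came from these edited cells, which the study's methods describe as clones. There were 2 control libraries from cells that received the solvent DMSO and 2 dIWS1 libraries from cells that received 500 nM dTAG7, the ligand that removes the tagged protein, all for 1 h. TT-seq counts the RNA made in a short pulse of 4-thiouridine (4sU), here 500 µM for 5 min, so its reads cover introns as well as exons and measure synthesis rather than the amount of mRNA.

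The values came from 1 table in which the authors give, for each gene, the mean over libraries of the read counts divided by size factors from synthetic spike-in RNAs. Whole reads per library column were worked out from these means, and each of the 8 KLF genes could be split into whole reads in 1 way from its mean alone. The columns were 1 control column, which entered the mean 2 times, and 2 different dIWS1 columns, so that the control was counted as 1 sample here and its own replicate spread is unknown. The table does not give the columns replicate numbers, and they are called column 1 and column 2. The control column held 29832118 reads in genes and the dIWS1 columns 20684301 and 20886697. A normalized count below is a number of reads divided by the spike-in size factor of its column, and dIWS1 is always compared with the control. All 11 markers fixed for K562 cells were in the table, and 12 of 14 markers of other cell types were not, *CD3D* and *KRT19* being the exceptions. *IWS1* itself had a log2 fold change of −0.55 (adjusted p = 0.00078, limma), which says nothing on the protein that the ligand removes.

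The 8 genes lie on 7 chromosomes and differ in length by far more than in exon number. By the RefSeq annotation of GRCh38, *KLF4* (chromosome 9, 107484852 to 107489769, minus strand) spans 4.92 kb, *KLF10* 6.94 kb and *KLF6* (chromosome 10, 3775996 to 3785209, minus strand) 9.21 kb. *KLF11* (chromosome 2, 10043550 to 10054836, plus strand) spans 11.3 kb and *KLF16* (chromosome 19, 1852399 to 1876536, minus strand) 24.1 kb. The longest are *KLF9* (chromosome 9, 70384604 to 70414657, minus strand) with 30.1 kb, *KLF3* (chromosome 4, 38664199 to 38701517, plus strand) with 37.3 kb and *KLF13* (chromosome 15, 31326835 to 31435665, plus strand) with 108.8 kb. In GENCODE release 44, the canonical transcripts have 2 exons in *KLF9*, *KLF13* and *KLF16*, 4 in *KLF6*, *KLF10* and *KLF11*, 5 in *KLF4* and 6 in *KLF3*. The exons of all transcripts together cover from 8.66% of the gene in *KLF13* to 66.1% in *KLF6*.

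RefSeq promoter windows were at hand for 6 of the 8 genes (7 windows, since *KLF11* has a pair), and the 250 bases in front of the start were searched. The GC box, GGGCGG on either strand with overlapping matches counted, was found in 6 of the 7 windows and in 42.6% of all 35116 windows of this length. The 6 include both windows of *KLF11*, and their GC content ran from 69.2% to 86.4%. CACCC on either strand was found in 2 of the 7, against 54.7% of all windows. CCAAT on either strand was in 3 of the 7, against 32.0%. TATAAA on either strand and the CArG box, the element bound by serum response factor, were in 0 of the 7, against 10.7% and 1.16% of all windows. These are letter matches in a short window and not binding sites. The windows of *KLF16*, *KLF9* and *KLF4* are printed because these genes stood low, in the middle and high in the order of changes given below, and because the windows touch no annotated exon. They read 5′ to 3′ on the gene's strand (GRCh38.p14), with matches to the GC box in capitals. None of the 3 holds CACCC.
KLF16 (chr19:1863580-1863829, minus strand): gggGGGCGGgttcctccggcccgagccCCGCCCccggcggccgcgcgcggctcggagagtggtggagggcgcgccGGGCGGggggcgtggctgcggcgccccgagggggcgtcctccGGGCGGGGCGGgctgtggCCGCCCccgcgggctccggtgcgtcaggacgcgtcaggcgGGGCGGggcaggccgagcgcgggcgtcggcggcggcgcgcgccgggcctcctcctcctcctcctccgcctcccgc
KLF9 (chr9:70414658-70414907, minus strand): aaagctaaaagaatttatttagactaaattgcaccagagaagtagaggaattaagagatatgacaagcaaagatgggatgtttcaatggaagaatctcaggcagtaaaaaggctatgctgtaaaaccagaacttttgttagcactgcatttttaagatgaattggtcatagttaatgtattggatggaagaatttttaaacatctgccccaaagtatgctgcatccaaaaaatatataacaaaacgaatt
KLF4 (chr9:107489770-107490019, minus strand): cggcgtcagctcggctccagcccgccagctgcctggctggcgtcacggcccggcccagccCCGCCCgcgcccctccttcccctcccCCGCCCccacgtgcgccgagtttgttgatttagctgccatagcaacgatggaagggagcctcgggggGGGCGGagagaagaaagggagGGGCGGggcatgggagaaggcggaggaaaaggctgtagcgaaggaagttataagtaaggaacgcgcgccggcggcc
The *KLF16* window had 7 GC boxes and a GC content of 86.4%, the *KLF4* window 4 and 69.2%, and the *KLF9* window 0 and 32.4%, where the median of all windows was 58% GC. The *KLF16* window lies inside the RefSeq gene span, which opens farther upstream, and so do both *KLF11* windows. The *KLF4* window lies in front of the RefSeq span but inside the longer GENCODE span. The *KLF6* window and both *KLF11* windows touch annotated exons. The match counts above therefore include sequence inside annotated genes.

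To compare the genes with each other, normalized reads were divided by the length of the RefSeq gene span. In the control *KLF3* was made at the highest density, with 192.9 normalized reads per kb, against 117.1 and 133.8 in the dIWS1 columns. *KLF6* had 168.2, 120.9 and 140.2, below *KLF3* in the control and above it in both dIWS1 columns. *KLF9* had 90.6, 69.1 and 74.8 normalized reads per kb, below *KLF6* in every column. *KLF10* had 57.9, 59.6 and 72.1, below *KLF9* in every column and closest to it in dIWS1 column 2. In the control, 95.4% of genes had a lower density than *KLF3* and 93.8% a lower one than *KLF6*.

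*KLF11* had 33.6 normalized reads per kb in the control, 28.4 in column 1 and 30.7 in column 2. *KLF16* had 23.5, 16.5 and 17.7 in the same order, below *KLF11* in each. Over the shorter GENCODE span this pair changed places, with 50.7 normalized reads per kb in the control for *KLF16* and 31.6 for *KLF11*. *KLF13* had 9.46, 6.77 and 7.79, and *KLF4* had 4.43, 5.94 and 8.62. *KLF4* was thus below *KLF13* in the control and column 1 and above it in column 2. The median gene had 40.7 normalized reads per kb in the control, and only 0.605% of genes lay under *KLF4*. The order depends on the length used. With the same reads divided by the exon length alone, the control values per kb were 1063 for *KLF3*, 523.5 for *KLF9*, 252.5 for *KLF6*, 191 for *KLF16*, 109.1 for *KLF13*, 105.2 for *KLF10*, 82.6 for *KLF11* and 5.95 for *KLF4*. *KLF9* then stood above *KLF6*, and *KLF16* and *KLF13* above *KLF11*, while *KLF3* stayed first and *KLF4* last. The plot of densities by column shows the 3 values per gene over the RefSeq span.

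**Figure D1:**
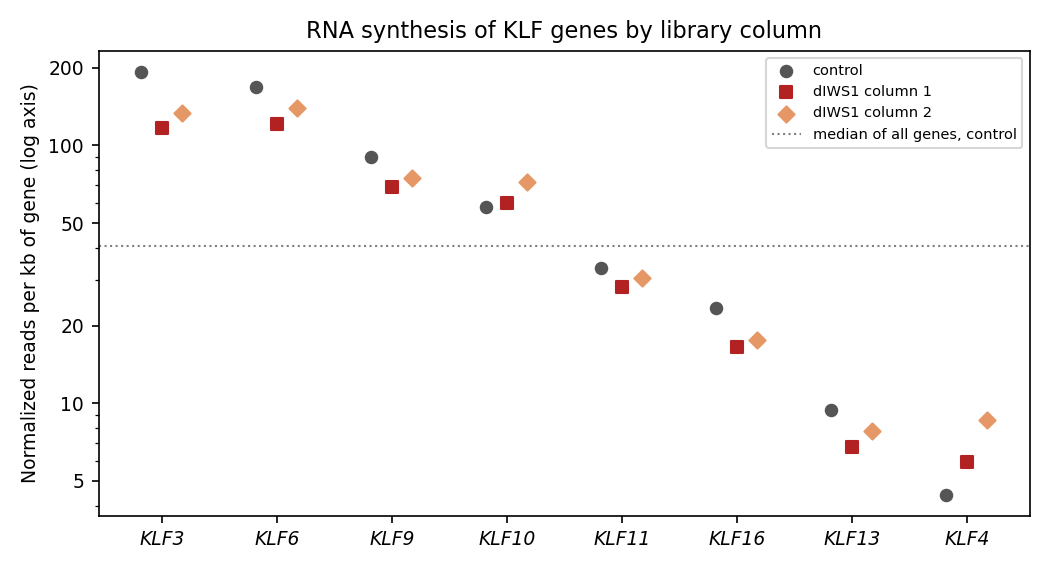
Normalized reads per kb of the RefSeq gene span on a log axis for the 8 KLF genes, with 1 point for the control column and 1 for each dIWS1 column, and a dotted line at the median of all genes in the control (40.7). The control point is the highest of the 3 in 6 genes and the lowest in *KLF10* and *KLF4*.

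Among the members known mainly as activators, *KLF6* fell and *KLF4* did not pass the test. *KLF6*, a widely expressed factor that is induced on injury and growth stimulation, had 1565 reads in the control, 1106 in column 1 and 1188 in column 2, or 1550.1, 1114 and 1292 normalized counts. Both dIWS1 values were below the control. The log2 fold change was −0.37 (standard error 0.14, 95% interval −0.64 to −0.10, adjusted p = 0.0155, limma), which is 77.4% of the control. By column the log2 ratio was −0.48 and −0.26.

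*KLF4*, one of the factors used to reprogram cells to pluripotency, had the fewest reads of the 8 genes, with 22 in the control, 29 in column 1 and 39 in column 2. The normalized counts were 21.8, 29.2 and 42.4, so both dIWS1 values were above the control. The log2 fold change was 0.67 (standard error 0.35, 95% interval −0.0043 to 1.35, adjusted p = 0.0743, limma). For column 1 the log2 ratio was 0.41 with an exact 95% interval from −0.43 to 1.29 for counting error alone, and for column 2 it was 0.95 with an interval from 0.17 to 1.79. At this depth column 1 could not be told from the control. The study kept only genes above a cutoff on the median TT-seq reads per kb, and only 0.605% of genes lay under *KLF4* in the control. Whether *KLF4* passed that cutoff only through its higher dIWS1 columns was not tested. With limma on log values in place of voom weights the adjusted p of *KLF4* was 0.0414.

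*KLF3*, a repressor that works through the CtBP co-repressors and is itself a target of *KLF1* in red cell precursors, had the largest fall of the 8 genes and by far the most reads. It had 7267 reads in the control, 4339 in column 1 and 4592 in column 2, or 7198, 4369 and 4994 normalized counts. The log2 fold change was −0.62 (standard error 0.15, 95% interval −0.92 to −0.33, adjusted p = 0.000143, limma), which is 64.9% of the control. The ratio was −0.72 in column 1 and −0.53 in column 2, and the counting intervals of the columns (−0.77 to −0.67 and −0.58 to −0.47) did not meet. The difference between the dIWS1 columns in *KLF3* was therefore larger than counting error. It is not particular to *KLF3*, since the median ratio of all genes also differed, at −0.47 in column 1 and −0.37 in column 2. Relative to these medians *KLF3* was at −0.25 and −0.16. Of all genes, 22.5% had a lower fold change than *KLF3*.

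The remaining members belong to the branch of the family that recruits SIN3 co-repressor complexes, and 3 of the 5 fell, where 64.5% of all genes were called lower. *KLF16*, described as a repressor of dopamine receptor genes, had 572 reads in the control, 395 in column 1 and 392 in column 2, or 566.6, 397.7 and 426.3 normalized counts. Its log2 fold change was −0.46 (standard error 0.13, adjusted p = 0.00115, limma), or 72.7% of the control. *KLF13*, known as a regulator of the chemokine *CCL5* in T cells, had 1039, 732 and 779 reads, or 1029, 737 and 847.3 normalized counts. Its log2 fold change was −0.38 (standard error 0.13, adjusted p = 0.00879). *KLF9*, an early target of glucocorticoid and thyroid hormone receptors, had 2749, 2062 and 2066 reads, or 2723, 2076 and 2247 normalized counts. Its log2 fold change was −0.33 (standard error 0.15, adjusted p = 0.0387). The call of *KLF9* was lost with limma on log values in place of voom weights (adjusted p = 0.0811 with a pseudocount of 0.5 and 0.087 with 2). In these 3 genes both dIWS1 columns were below the control.

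*KLF11* and *KLF10*, the pair first described as early genes induced by TGF-β, did not pass the test. *KLF11* had 383 reads in the control, 318 in column 1 and 319 in column 2, or 379.4, 320.2 and 347 normalized counts, and its log2 fold change was −0.19 (standard error 0.13, 95% interval −0.45 to 0.07, adjusted p = 0.198, limma). *KLF10* (chromosome 8, 102648784 to 102655725, minus strand) had 406 reads in the control, 411 in column 1 and 460 in column 2, or 402.1, 413.8 and 500.3 normalized counts. Both dIWS1 values of *KLF10* were above the control, by 0.04 on the log2 scale in column 1 and by 0.31 in column 2. The counting interval was −0.16 to 0.24 for column 1 and 0.12 to 0.51 for column 2, so only column 2 stood above the control by more than counting error. The fitted log2 fold change was 0.18 (standard error 0.13, 95% interval −0.08 to 0.43, adjusted p = 0.213, limma). Of all genes, 99.0% had a lower fold change than *KLF10* and 84.5% a lower one than *KLF11*.

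Across the family, 5 of the 8 KLF genes were called lower and 0 higher at an adjusted p under 0.05. Over all 10136 genes with reads, 64.5% were called lower and 0.109% higher, so the share of KLF genes called lower was close to that of all genes. At an unadjusted p under 0.05, 0 KLF genes and 19 of all genes were higher, and limma on log values called 1 KLF gene, *KLF4*, and 11 of all genes higher. The median log2 fold change of the 8 genes was −0.35, against −0.43 over all genes. In column 1 the medians were −0.43 for the KLF genes and −0.47 for all genes, and in column 2 −0.27 and −0.37. Both dIWS1 columns were below the control in 6 of the 8 genes (92.1% of all genes) and above it in 2 (2.03% of all genes). These 2 are *KLF10* and *KLF4*. Whether *KLF4* passed the study's cutoff only through its higher dIWS1 columns was not tested, so its place in this count is uncertain. In all 8 genes the ratio was higher in column 2 than in column 1, the direction in which the medians of all genes also differed. The plot of the distribution of all genes places *KLF3* on its left side, *KLF16*, *KLF13*, *KLF6* and *KLF9* near its centre and *KLF10* and *KLF4* at its right end.

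**Figure D2:**
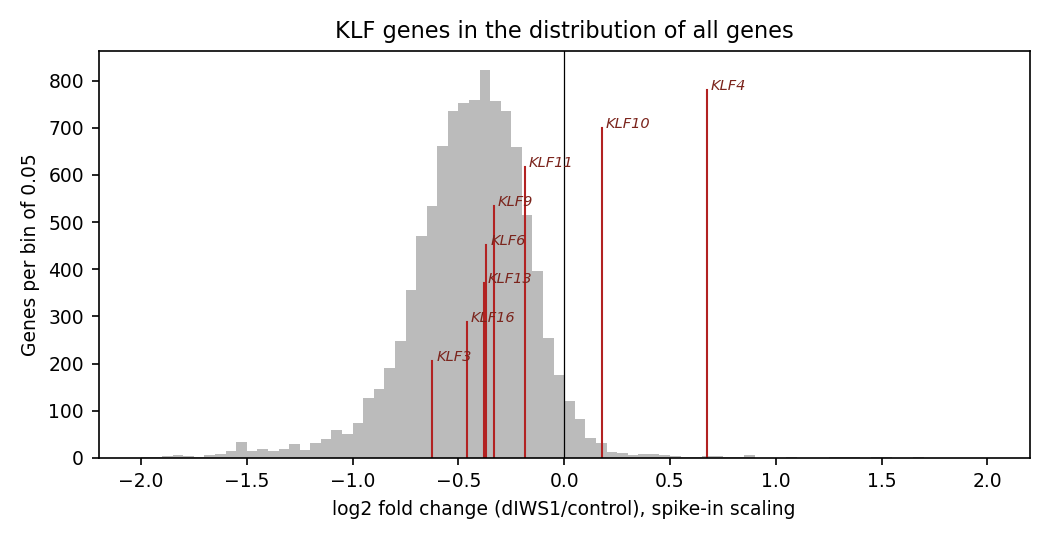
Histogram of the fitted log2 fold changes (dIWS1/control, spike-in scaling) of all genes in bins of 0.05, with 35 genes beyond the axis, and red lines at the 8 KLF genes, whose heights only separate the labels. The median of all genes is −0.43, *KLF3* lies at −0.62, and *KLF10* (0.18) and *KLF4* (0.67) are the only KLF genes above 0.

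Since nearly all genes were lower under the spike-in scaling, each column was also recentred on its median gene, which moves the median of all genes from −0.43 to near 0. With this scaling 12.8% of genes were called lower and 12.8% higher. Of the KLF genes, 1 was called lower and 2 were called higher than the median gene. The limit from the study's cutoff given above for *KLF4* holds for this count too. *KLF10* stood 0.60 above the median gene on the log2 scale (standard error 0.11, 95% interval 0.36 to 0.84, adjusted p = 0.0031, limma), with 0.51 in column 1 and 0.69 in column 2. It remained called with libraries scaled by total reads in genes (0.62, adjusted p = 0.0111) and by the median ratio of genes (0.59, adjusted p = 0.0438). *KLF4* was higher by 1.10 (standard error 0.38, adjusted p = 0.0488) and *KLF3* was lower, at −0.20 (standard error 0.07, adjusted p = 0.0451). Neither call was kept with the other scalings, although the folds were about as large. With total reads *KLF4* was at 1.12 (adjusted p = 0.0629) and *KLF3* at −0.18 (adjusted p = 0.0539), and with the median ratio they were at 1.09 (adjusted p = 0.101) and −0.21 (adjusted p = 0.0752).

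Relative to the median gene, *KLF16* was at −0.04, *KLF13* at 0.04, *KLF6* at 0.05, *KLF9* at 0.09 and *KLF11* at 0.24, none of them called. The sign of *KLF13*, *KLF6*, *KLF9* and *KLF11* thus depends on the scaling, and that of the other 4 genes did not change under the scalings tried. Differences between neighbours in this order were mostly within their error. From *KLF3* to *KLF16* the difference was 0.16 (95% interval −0.09 to 0.42), and from *KLF16* through *KLF13*, *KLF6* and *KLF9* to *KLF11* each step was between 0.01 and 0.15 with an interval that includes 0. The step from *KLF11* to *KLF10* was 0.36 (0.02 to 0.71), with 0.29 in column 1 and 0.44 in column 2. The last step, from *KLF10* to *KLF4*, was 0.50 with an interval that includes 0 (−0.35 to 1.36). Between *KLF3* and *KLF10* the difference was 0.80 (0.52 to 1.09), with 0.76 in column 1 and 0.84 in column 2. These intervals treat the errors of a pair of genes as independent. The pairs were taken from the order of these same fold changes, and the intervals are not adjusted for that choice or for the number of pairs.

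**Figure D3:**
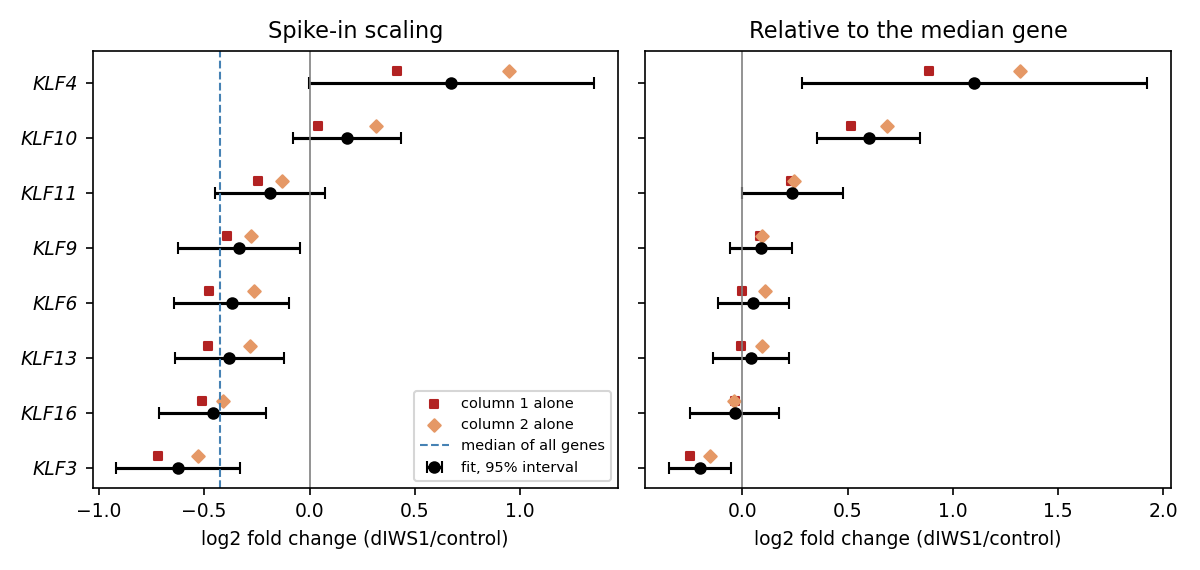
Log2 fold change (dIWS1/control) of the 8 KLF genes with 95% intervals from limma as black points, and the ratio of each dIWS1 column alone as coloured points, under spike-in scaling (left) and relative to the median gene (right). On the left, 5 intervals lie wholly below 0. On the right, those of *KLF10* and *KLF4* lie above 0 and that of *KLF3* below it.

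The changes were also set beside gene length, with all genes divided into 4 classes. Genes up to 10 kb had a median log2 fold change of −0.49, and the medians of the longer classes were −0.39 in the next class, −0.35 in the class after it and −0.49 in the longest genes, above 65 kb. *KLF4*, *KLF10* and *KLF6* are all in the shortest class, at 0.67, 0.18 and −0.37, each above its median. *KLF16* (−0.46) was below and *KLF11* (−0.19) above the median of the next class. *KLF3* (−0.62) was below and *KLF9* (−0.33) close to the median of the class up to 65 kb, and *KLF13* (−0.38) was above the median of the longest genes.

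The same comparison was read for the genes around the family. Of the other KLF genes, *KLF1* and *KLF12* are in the table, and both fell. *KLF1*, the factor that drives adult globin and other red cell genes, had 295 reads in the control, 163 in column 1 and 162 in column 2, and a log2 fold change of −0.78 (adjusted p = 2.01e-06, limma). *KLF12*, like *KLF3* a CtBP-binding repressor, had 3705, 2488 and 2412 reads and a log2 fold change of −0.52 (adjusted p = 0.0016). Relative to the median gene neither was called, with *KLF1* at −0.36 (adjusted p = 0.068, limma) and *KLF12* at −0.09 (adjusted p = 0.329). The SP genes encode the zinc finger factors closest to the KLF family, and 3 of 5 in the table were called lower, with a median of −0.45. Over all genes 64.5% were called lower, with a median of −0.43. *SP2* fell most, by 0.73 on the log2 scale (adjusted p = 2.46e-06), followed by *SP6* (−0.54) and *SP1* (−0.45). Relative to the median gene only *SP2* of the SP genes was called, at −0.30 (adjusted p = 0.0117). *SP3*, which had 7476 control reads, was at −0.27 (adjusted p = 0.0958), and *SP9* had 18, 14 and 21 reads, too few for a direction.

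Of 8 co-regulators of KLF proteins in the table, 5 were called lower, and the median was −0.49. For this list and those below, the values over all genes are 64.5% called lower and a median of −0.43. *CTBP1*, which encodes a co-repressor bound by KLF3 and KLF12, fell by 0.93 on the log2 scale, from 3068 control reads to 1501 and 1547 (adjusted p = 8.98e-09). It was also lower relative to the median gene (−0.51, adjusted p = 0.00064, limma). *SAP30*, a subunit of the SIN3 complex, was at 0.20 (adjusted p = 0.273), with 159, 169 and 177 reads, and was higher relative to the median gene (0.62, adjusted p = 0.0135). On that scale 1 co-regulator was called lower and 2 higher, where 12.8% of all genes were called each way. In the ERK5 and MEF2 pathway, which induces *KLF2* and *KLF4*, 5 of 7 genes were called lower with a median of −0.37, from *MAP2K5* (−0.86) to *MEF2A* (−0.30, not called). Relative to the median gene *MAP2K5* was lower (−0.44, adjusted p = 0.000887), and no other gene of this list was called. Of 6 ubiquitin ligases known to act on KLF proteins, 3 were called lower with a median of −0.31, from *BTRC* (−0.67) to *FBXO32* (−0.09, not called). Relative to the median gene *BTRC* was lower (−0.25, adjusted p = 0.0177), *FBXO32* was higher (0.34, adjusted p = 0.0212), and no other ligase was called.

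For the AP-1 genes, another set of early response factors, 3 of 7 were called lower and the median was −0.31, from *JUND* (−0.50) to *FOS* (0.36, not called). For the EGR and IER genes 4 of 7 were called lower and the median was −0.34, from *EGR1* (−0.43) to *BTG2* (−0.03, not called). In each of these lists 0 genes were called higher under the spike-in scaling. Over all genes 64.5% were called lower and 0.109% higher. Relative to the median gene, *BTG2* was higher (0.39, adjusted p = 0.00672), and 0 AP-1 genes were called. The plot of the lists shows the spread within each. The test of whether a list differs from the KLF genes was not made.

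**Figure D4:**
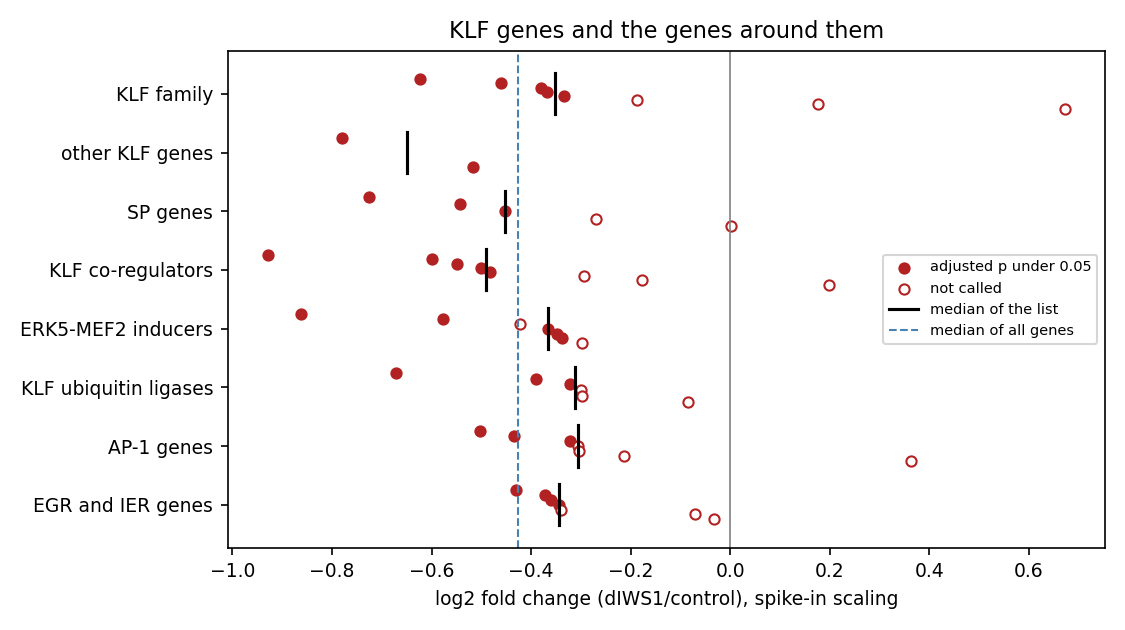
Fitted log2 fold change (dIWS1/control, spike-in scaling) of each gene in the KLF family and 7 lists of related genes, filled where the adjusted p is under 0.05, with a black bar at each list's median and a dashed line at the median of all genes (−0.43). List medians run from −0.65 for the other KLF genes to −0.31 for the AP-1 genes, and *KLF4* is the point farthest to the right.

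With 1 control column the test took its spread from the dIWS1 columns and assumed that the control varies like them, and an exact permutation of 1 against 2 columns cannot give a p under 0.333. The study's methods describe the TT-seq libraries as 2 biological replicates, and no p-value here measures the spread between controls.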

How the data were processed

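TT-seq libraries of the edited K562 cells were analysed from 1 deposited table. Per the submitters' processing notes and the study's methods, the authors aligned reads with STAR 2.6.0 to GRCh38 with spike-in sequences, kept unique alignments, counted read pairs per RefSeq gene with strand, removed overlapping genes, kept expressed ones and ran DESeq2 with spike-in size factors. Expressed genes were those above a cutoff on the median TT-seq reads per kb. The deposited signal used here is the mean over libraries of counts divided by size factors. The table also holds the authors' own comparison (log2 fold change, its error, a statistic, p-value and adjusted p), of which the deposited log2 values served only to tell which columns lie on which side of the comparison, to choose among several splits and to narrow the search in the highest genes. The direction, dIWS1 over control, follows the study's figure legends.

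Means were written as sums of whole multiples of 3 steps, the worth of 1 read in each column. Up to a mean of 10000, 9569 of 9619 genes had 1 solution from the mean alone and 50 were chosen by the deposited fold change, as were all 517 higher ones within 0.01 on the log2 scale. Reads of all 10136 genes with a mean above 0 were used. Fold changes came from limma 3.58.1 (voom, size factors from the spike-ins, R 4.3.3), with the control column counted once, a two-sided moderated test, Benjamini-Hochberg adjustment over all genes and a threshold of 0.05. Under the spike-in scaling the moderation gave all genes a common spread, and in the recentred fit the spread of each gene also entered. Single-column ratios used a pseudocount of 0.5 reads. Exact (Clopper-Pearson) 95% intervals of single-column ratios cover counting error only. Spans came from RefSeq (10086 genes matched), exons from GENCODE 44. Scripts were tested on simulated data. The members, the lists of related genes and the tests were chosen with earlier results of these data known. The genes named were the members, *IWS1*, the other KLF and SP genes, and the lowest and highest of each further list, and *CD3D* and *KRT19* were named after their values were seen.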

Additional observations from a re-analysis of the deposited data

How the results depend on the processing

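No paired analysis was possible because the recovered columns carry no replicate numbers. Leaving out the control column was not possible either, since 1 was held. The 5 KLF genes called lower stayed between 4 and 6 with other filters on low means, with limma on log values, at an adjusted p under 0.1 and with the control column entered 2 times, and became 3 at an adjusted p under 0.01. Entering the control column 2 times adds a copy with no spread of its own, so the p-values of that setting rest on a false replicate. The number called higher, 0, became 1 (*KLF4*) with limma on log values at both pseudocounts, and likewise at a threshold of 0.1. Of all genes, 6539 were called lower, against 4922 at an adjusted p under 0.01, 7398 under 0.1, 5520 and 5524 with limma on log values and 7883 with the control entered 2 times. The 11 genes called higher became 6 at an adjusted p under 0.01, 23 under 0.1 and 61 with the control entered 2 times.

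The scaling changed most results, and by construction it shifts all genes together. Recentred on the median gene, scaled by total reads in genes and scaled by the median ratio of genes with a mean of at least 100, in this order, KLF genes called lower were 1, 0 and 0, KLF genes called higher 2, 1 and 1, all genes called lower 1293, 1062 and 698, all genes called higher 1300, 1471 and 495, and the median of the KLF genes 0.071, 0.090 and 0.061 in place of −0.35. In the same order *KLF6* was at 0.053, 0.072 and 0.043, *KLF9* at 0.088, 0.11 and 0.078, *KLF11* at 0.24, 0.26 and 0.23, and *KLF13* at 0.042, 0.061 and 0.032. From 1 dIWS1 column at a time, with no test, the KLF median was −0.43 and −0.27. The call of *KLF11* appeared only with the control entered 2 times (adjusted p = 0.0351), where 1 control is counted as 2 and the p-value is not valid. Depth limits *KLF4* most, with at most 39 reads in a column.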
